A study of Mus musculus with 8 samples.

Results

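The 57 genes described here carry out or control cholesterol and fatty acid metabolism. They were found by gene symbol among the 32531 rows of the count table, and all 57 passed the filter on low counts that left 15082 genes for testing. RNA was sequenced from the pancreatic islets of 4 control mice (RIP-Cre+, Rosa26-rtTA+, without tetO_NICD) and 4 β-tetO-NICD mice (RIP-Cre+, Rosa26-rtTA+, tetO_NICD+). Every mouse had drunk doxycycline (Dox) for 8 weeks and was of a mixed C57BL/6J, 129X1/SvJ and BALB/c background. The rat insulin promoter directs Cre to β cells, Cre permits the Dox-dependent activator rtTA, and rtTA with Dox switches on NICD, the cleaved and active intracellular part of Notch1. The controls therefore share Cre, rtTA and Dox, and differ by the absence of the NICD transgene. The comparison asks how the lipid genes stand in islets after sustained Notch activity in β cells. The labels give neither the age nor the sex of the mice.

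Cells make cholesterol from acetyl-CoA through the mevalonate pathway, under transcription factors of the SREBP family, whose release from the endoplasmic reticulum the Insig proteins hold back when sterols are plentiful. Fatty acids are built from the same acetyl-CoA, lengthened and desaturated, activated to acyl-CoA, and then either stored as triglyceride in lipid droplets or oxidised in mitochondria. In β cells, malonyl-CoA, the first product of fatty acid synthesis, also holds back the entry of fatty acids into mitochondria and is known for its link to insulin secretion.

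Libraries held 21701223 to 26413146 counts, and 1 library's 3 counts correspond to 0.0996 to 0.151 CPM (counts scaled to a common library size with TMM factors), so counting error was small beside the differences between mice for nearly every gene below. Notch1, part of which the transgene encodes, rose from a mean of 56.9 ± 10.7 CPM to 1030 ± 331 CPM (SD, n = 4 each; log2 fold change 4.18, adjusted p = 0.000102), with every β-tetO-NICD library above every control. Summed over 10 β cell markers, controls ranged from 157200 to 197800 CPM and β-tetO-NICD libraries from 72400 to 172200 CPM, with 3 markers lower by test. Summed over 7 α cell markers, the ranges were 12340 to 43400 and 55710 to 70650 CPM, with 3 markers higher. Macrophage markers summed to 155 to 208 and 225 to 329 CPM, with 1 of 9 higher. That gene, C1qa, made up the largest part of the sums (means of 77.6 and 150 CPM). Of the 9 values 7 were above 0, with Cd68 at 0.00, while Adgre1 and Mrc1 had −0.38 and −0.25. The paper reports no change of macrophages in these islets. Sums of acinar, endothelial, duct and mesenchymal markers overlapped between the groups, with none of their genes past the test by edgeR. At an unadjusted p under 0.05 stood 1 of 18 acinar, 3 of 9 endothelial, 3 of 8 duct and 1 of 7 mesenchymal genes (31.6% of all tested genes did). DESeq2 called 1 acinar and 3 duct genes, where it called 18.2% of all tested genes. Adipocyte markers summed to low levels in both groups (0.852 to 1.11 and 1.57 to 2.97 CPM), without overlap, and no single count of an adipocyte marker exceeded 60. Cidea, the only one of the 7 with enough counts to test, had means of 0.764 and 1.79 CPM and a log2 fold change of 1.23 without overlap (adjusted p = 0.0638), and DESeq2 called it. In whole islets, fewer cells of a type and less RNA per cell cannot be told apart, and the part of these cell type shifts in the results below was not tested.

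Some libraries stood apart from their groups. Acinar markers summed to 144900 CPM in β-tetO-NICD library 1, against 40160 to 79210 CPM in the rest of its group. In control 1 they summed to 95060 CPM, against 47570 to 49850 CPM in the other controls. β-tetO-NICD library 1 also had the lowest β cell sum (72400 CPM). The part of acinar content in the values of library 1 below was not tested. Relative to the mean of the 8 libraries, expression correlated positively with transcript length (Spearman, across genes) in controls 1, 2 and 4 (0.418, 0.467 and 0.497) and in β-tetO-NICD library 1 (0.446), and negatively in control 3 (−0.174) and β-tetO-NICD libraries 2, 4 and 5 (−0.522, −0.360 and −0.515). The length correction used below subtracts each library's own trend. That trend mostly went with the group, so the correction cannot tell it apart from group differences tied to length. Counts of Eif2s3y, a gene of the Y chromosome, were 1300 in control 2, 1527 in control 4 and 1465 in library 5 of the β-tetO-NICD group, while no further library had more than 1. The study's methods state that gene expression was measured in islets of males, so these counts go against a single sex for all libraries. Without β-tetO-NICD library 1, 33.1% of all tested genes had an adjusted p under 0.05, against 6.76% in all 8 libraries. Each adjusted p given below without library 1 stands beside that share.

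Of the 57 genes, 5 had an adjusted p under 0.05 by edgeR's quasi-likelihood test (8.77%, against 6.76% of all tested genes). One was higher in β-tetO-NICD islets, Plin2 (1.75%, against 4.19% of all tested genes), and 4 were lower, Pparg, Elovl6, Lss and Hadh (7.02%, against 2.57%). The groups did not overlap for 9 of the 57 (15.8%, against 16.1% of all tested genes), and 15 had an unadjusted p under 0.05 (26.3%, against 31.6%). DESeq2 called 12 of the 57 (21.1%, against 18.2% of all tested genes). The median log2 fold change was −0.02 over the 57 genes and 0.00 over all tested genes, with 28 values above 0 and 29 below. The 5 genes encode a coat protein of lipid droplets, a nuclear receptor, a fatty acid elongase, a sterol cyclase and an enzyme of β oxidation.

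**Figure D1:**
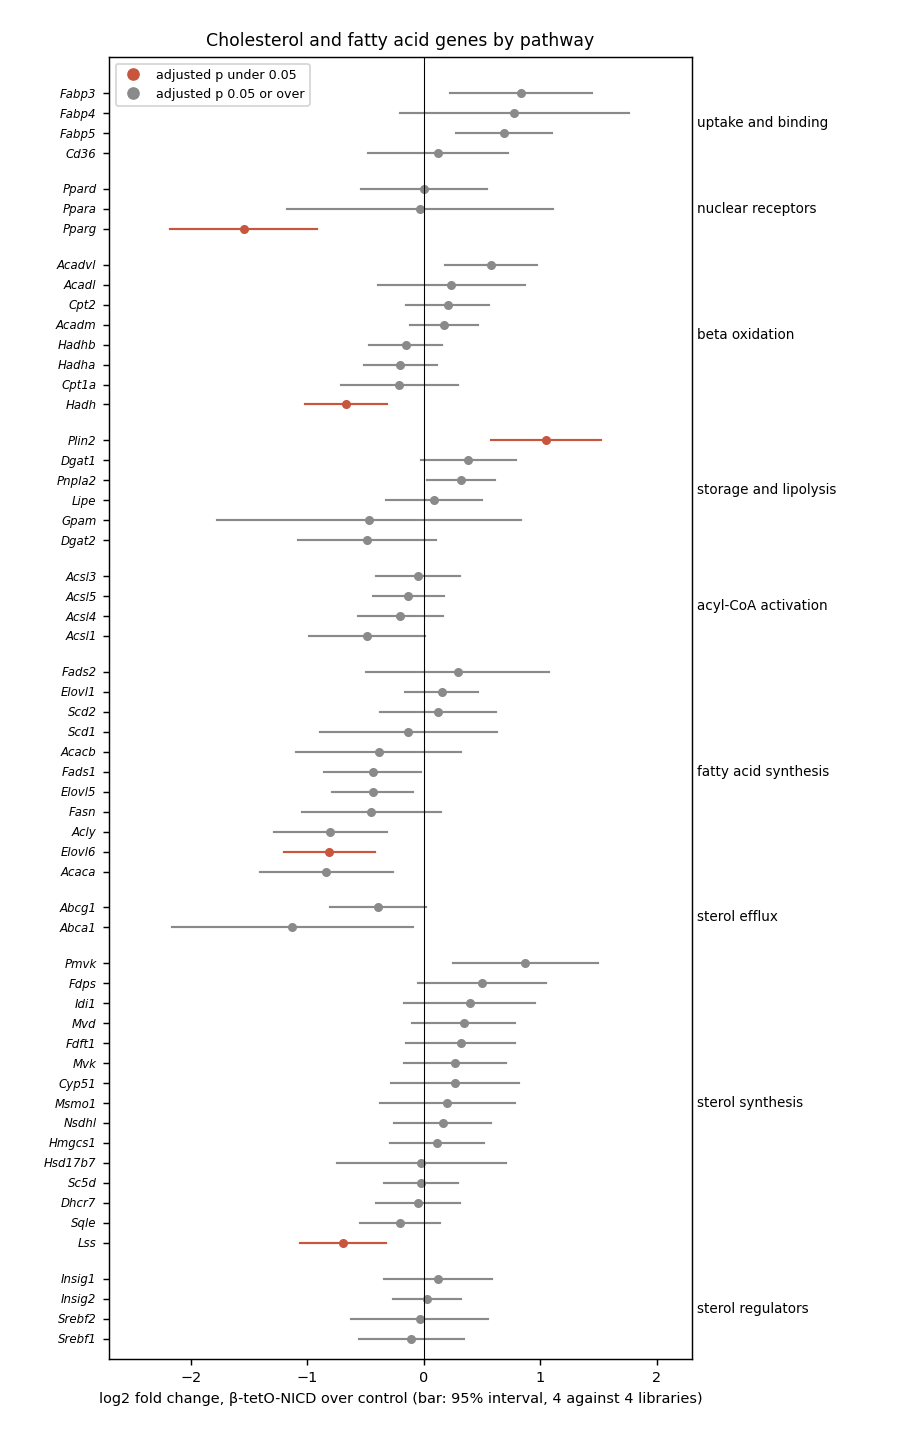
Log2 fold change of each of the 57 genes, β-tetO-NICD over control, with its 95% interval from edgeR (4 against 4 libraries), grouped by pathway. Red marks the 5 genes with an adjusted p under 0.05. Plin2 is the red point to the right of 0, and Pparg, at −1.54, lies farthest to the left.

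NICD acts on genes through the DNA-binding protein RBPJ, and SREBP factors bind sterol regulatory elements, so the sequence before annotated starts was read for 3 short motifs. The motifs were chosen after the values were known. RefSeq promoter windows on GRCm38.p6, the 250 bases before each start, were matched for 46 of the 57 genes and gave 59 windows, since some genes have several annotated starts. The Pparg window shown lies within the bounds of the gene, before an internal start. GTGGGAA, a long form of the RBPJ motif, or its reverse complement TTCCCAC, was present in 5 of these windows (8.47%) and in 5.42% of 32851 windows of all genes. The genes were Hmgcs1, Nsdhl, Plin2, Pparg and Sc5d, of which Plin2 and Pparg passed the expression test, one in each direction. TGGGAA, the core contained in the long form, or TTCCCA was in 23.7% against 21.6%. TCACNCCAC, a sterol regulatory element, or GTGGNGTGA was in 3.39% (Acsl1 and Hmgcs1) against 1.05%. The windows of the genes with opposite directions, Plin2 (chr4:86670060-86670309, minus strand) and Pparg (chr6:115421816-115422065, plus strand), are shown with the long RBPJ form in capitals, and that of Hmgcs1 (chr13:119690101-119690350, plus strand), which encodes the cytosolic HMG-CoA synthase at the head of the mevalonate pathway, with the sterol regulatory element in capitals.
Plin2: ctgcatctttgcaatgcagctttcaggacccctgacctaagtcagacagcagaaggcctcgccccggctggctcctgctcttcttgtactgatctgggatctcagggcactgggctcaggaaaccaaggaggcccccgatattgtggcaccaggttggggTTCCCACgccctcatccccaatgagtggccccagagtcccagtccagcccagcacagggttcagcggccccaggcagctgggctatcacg
Pparg: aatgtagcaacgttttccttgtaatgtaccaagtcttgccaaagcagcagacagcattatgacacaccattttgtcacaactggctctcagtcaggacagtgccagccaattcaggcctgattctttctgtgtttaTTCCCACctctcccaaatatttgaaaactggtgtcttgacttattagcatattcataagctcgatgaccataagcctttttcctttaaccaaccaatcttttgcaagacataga
Hmgcs1: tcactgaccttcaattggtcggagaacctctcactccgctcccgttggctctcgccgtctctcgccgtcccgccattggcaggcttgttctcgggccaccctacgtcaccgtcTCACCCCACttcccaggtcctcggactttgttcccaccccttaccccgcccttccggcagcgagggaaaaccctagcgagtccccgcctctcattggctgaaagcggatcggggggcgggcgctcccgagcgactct
The capitals lie 90 to 84 bases before the start in Plin2, 114 to 108 in Pparg and 137 to 129 in Hmgcs1. A match of letters is a description of the window and not a bound site.

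The regulators of sterol synthesis stood at nearly the same level in both groups. Srebf1 and Srebf2, which encode the SREBP transcription factors, and Insig1 and Insig2, which hold them back, had log2 fold changes between −0.11 and 0.12, and none had an adjusted p under 0.05 (0 of 4 by edgeR, DESeq2 or an unadjusted p under 0.05). Srebf1 counted 82.0, 78.0, 57.1 and 74.4 CPM in controls 1 to 4 and 75.7, 84.0, 65.1 and 46.2 CPM in libraries 1, 2, 4 and 5 of the β-tetO-NICD group. Insig1, itself a target of SREBP factors, counted 57.7, 82.1, 50.7 and 66.8 CPM in controls and 60.5, 83.9, 52.4 and 83.7 CPM in β-tetO-NICD libraries. For both genes the groups covered much the same range. The 95% intervals of the 4 genes reached from −0.62 to 0.59 on the log2 scale, so changes of up to about that size were not excluded.

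Among the 15 enzymes that lead from acetyl-CoA units to cholesterol, Lss fell and 14 did not pass by edgeR, while DESeq2 called Lss and Pmvk (of all tested genes, 6.76% passed by edgeR and 18.2% by DESeq2). Lss, lanosterol synthase, closes the linear precursor into the first sterol ring system. It lies on chromosome 10 (76531588 to 76557138, plus strand, GRCm38). It counted 39.1, 39.8, 33.8 and 45.1 CPM in controls 1 to 4 and 28.2, 24.7, 26.3 and 18.5 CPM in libraries 1, 2, 4 and 5 of the β-tetO-NICD group. Each β-tetO-NICD library lay below each control, and Lss fell by 0.69 on the log2 scale (SE 0.16, adjusted p = 0.0376). It passed in 2 of 8 comparisons that left out 1 library, and after correction for transcript length the log2 fold change was −0.28 (adjusted p = 0.177), with adjusted p from 0.00236 to 0.346 over 14 other settings.

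None of the other 14 sterol enzymes passed by edgeR. Of them, 10 had a log2 fold change above 0, from Hmgcs1 at 0.11 to Pmvk at 0.87, and the median of the 15 was 0.20, against 0.00 for all tested genes, and stayed between 0.04 and 0.35 under every alternative tried. Pmvk, phosphomevalonate kinase, counted 17.1, 14.95, 22.6 and 13.8 CPM in controls and 19.8, 28.5, 27.7 and 49.4 CPM in β-tetO-NICD libraries (adjusted p = 0.0806). Its groups overlapped through control 3 and β-tetO-NICD library 1, and its transcript is short (1194 bases), with a log2 fold change of 0.37 after the length correction (adjusted p = 0.114) and 1.04 without β-tetO-NICD library 1 (adjusted p = 0.015). Between these extremes, on the log2 scale, lay Fdps (0.50), Idi1 (0.40), Mvd (0.34), Fdft1 (0.32), Mvk (0.27), Cyp51 (0.27), Msmo1 (0.20) and Nsdhl (0.16), which together span the steps from mevalonate to the trimming of lanosterol. Hsd17b7, Sc5d, Dhcr7 and Sqle, the late enzymes and the epoxidase before Lss, had values of −0.02, −0.02, −0.05 and −0.20. Without library 1, Fdps also passed (0.70, adjusted p = 0.0155), where 33.1% of all tested genes did. Within the β-tetO-NICD group, library 2 had the highest level for 10 of the 15 enzymes and library 1 the lowest for 9. The enzymes other than Lss had 95% intervals reaching from −0.74 to 1.49.

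Sterol efflux has 2 genes here, the transporters Abca1 and Abcg1, and both had values below 0 that did not pass. By edgeR and DESeq2 0 of 2 were called, against 6.76% and 18.2% of all tested genes. At an unadjusted p under 0.05 stood 1 of 2, against 31.6% of all tested genes. Abca1, which hands cholesterol to lipid-poor apolipoprotein, counted 178, 213, 110 and 197 CPM in controls 1 to 4 and 176, 44.3, 61.6 and 37.7 CPM in libraries 1, 2, 4 and 5 of the β-tetO-NICD group. Of the β-tetO-NICD libraries, 2, 4 and 5 lay below every control, and library 1 stood at the controls' level, giving a log2 fold change of −1.13 (SE 0.46, adjusted p = 0.137). Without library 1, where 33.1% of all tested genes passed, it was −1.87 (adjusted p = 0.00291). That was the 1 of 8 comparisons with a library left out in which Abca1 passed. With the length correction its value was −0.70 (adjusted p = 0.0933). Its transcript of 10262 bases is the longest among the 57 genes, and the libraries in which it was lowest are those with a negative length trend. Abcg1, which loads cholesterol onto lipoprotein particles, counted 43.1, 49.2, 41.7 and 47.8 CPM in controls and 44.7, 25.2, 38.6 and 30.3 CPM in β-tetO-NICD libraries (log2 fold change −0.39, adjusted p = 0.177). Its value was −0.54 without library 1 (adjusted p = 0.0368) and −0.10 with the length correction (adjusted p = 0.604).

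Fatty acid synthesis held the most genes with lower values. Of 11 enzymes, 8 had a log2 fold change below 0, and the median was −0.44. By edgeR 1 passed, Elovl6 (9.09%, against 6.76% of all tested genes). DESeq2 called 4 (Acaca, Acly, Elovl5 and Elovl6), where it called 18.2% of all tested genes. Elovl6 (chromosome 3, 129532355 to 129638495, plus strand) lengthens palmitate-sized fatty acids and is a known SREBP target. It counted 34.8, 34.3, 27.7 and 35.6 CPM in controls and 24.6, 15.5, 18.8 and 16.7 CPM in β-tetO-NICD libraries. The groups did not overlap, and Elovl6 fell by 0.81 on the log2 scale (SE 0.17, adjusted p = 0.0259). After the length correction the value was −0.50 (adjusted p = 0.0128), and it passed in 2 of 8 comparisons with 1 library left out.

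Acly, ATP-citrate lyase, releases the acetyl-CoA from which both pathways start, and per kilobase of transcript it was the most abundant of the 57 genes in controls (420 CPM per kb, with Hadh next at 137). It lies on chromosome 11 (100476353 to 100528000, minus strand) and counted 1741, 1697, 1502 and 2489 CPM in controls against 1246, 966, 1137 and 913 CPM in β-tetO-NICD libraries. Every β-tetO-NICD library was below every control, with a log2 fold change of −0.80 (SE 0.22) and an adjusted p of 0.0543. With the length correction it was −0.64 (adjusted p = 0.0385), and the adjusted p ran from 0.00148 to 0.438 over 14 other settings. This single gene made up 0.146% to 0.262% of all counts in controls and 0.0813% to 0.130% in β-tetO-NICD libraries. The 57 genes together made up 0.412% to 0.578% and 0.298% to 0.428%, and without Acly 0.266% to 0.319% and 0.216% to 0.298%.

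Acaca, the acetyl-CoA carboxylase that makes malonyl-CoA for fatty acid synthesis, had the lowest log2 fold change of the enzymes (−0.84, SE 0.26, adjusted p = 0.0736). It counted 48.2, 46.5, 27.0 and 49.3 CPM in controls and 34.9, 19.3, 23.2 and 18.3 CPM in β-tetO-NICD libraries. The overlap came from control 3, which lay below β-tetO-NICD library 1. Control 3 was also the lowest control for Fasn, the fatty acid synthase (52.2 CPM against 102 to 107 CPM), which had a log2 fold change of −0.45. In controls 1, 2 and 4 Acaca was above each β-tetO-NICD library. Acaca and Fasn have transcripts of 9513 and 10050 bases, and after the length correction the log2 fold change of Acaca was −0.29 (adjusted p = 0.0899) and that of Fasn turned to 0.15 (adjusted p = 0.466). Without β-tetO-NICD library 1, Acaca had −1.08 (adjusted p = 0.00947) and Fasn −0.64 (adjusted p = 0.0749). In the libraries without Eif2s3y counts they had −0.55 and −0.09.

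The desaturases and remaining elongases were mixed. Fads1, the delta-5 desaturase of polyunsaturated fatty acids, counted 61.0, 56.0, 59.2 and 80.9 CPM in controls and 49.9, 51.2, 54.8 and 34.0 CPM in β-tetO-NICD libraries. The groups did not overlap, but by less than the spread within either, and the log2 fold change of −0.44 did not pass (SE 0.19, adjusted p = 0.145). Elovl5, which lengthens polyunsaturated fatty acids, had the same fold change (−0.44, adjusted p = 0.103). Fads2, the delta-6 desaturase beside Fads1 on chromosome 19, had the highest value of the group, 0.29 (adjusted p = 0.573), with 10.9, 10.9, 7.40 and 10.3 CPM in controls and 16.2, 12.1, 15.7 and 4.38 CPM in β-tetO-NICD libraries. Fads2 in β-tetO-NICD library 5 was below every other library while the rest of its group was above every control. Scd1 and Scd2, stearoyl-CoA desaturases with similar sequences between which pseudoalignment may divide reads, had values of −0.13 and 0.12, Elovl1 had 0.15, and Acacb, the mitochondrial acetyl-CoA carboxylase, had −0.39, which turned to 0.11 with the length correction. In this pathway control 3 was the lowest control for 9 of 11 genes and β-tetO-NICD library 5 the lowest of its group for 8, while library 1 was the highest for 7. With the length correction the median of the 11 enzymes was −0.13, and in the fit of only the 5 libraries without Eif2s3y counts it was −0.09, within a range of −0.52 to −0.01 over all alternatives tried.

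**Figure D2:**
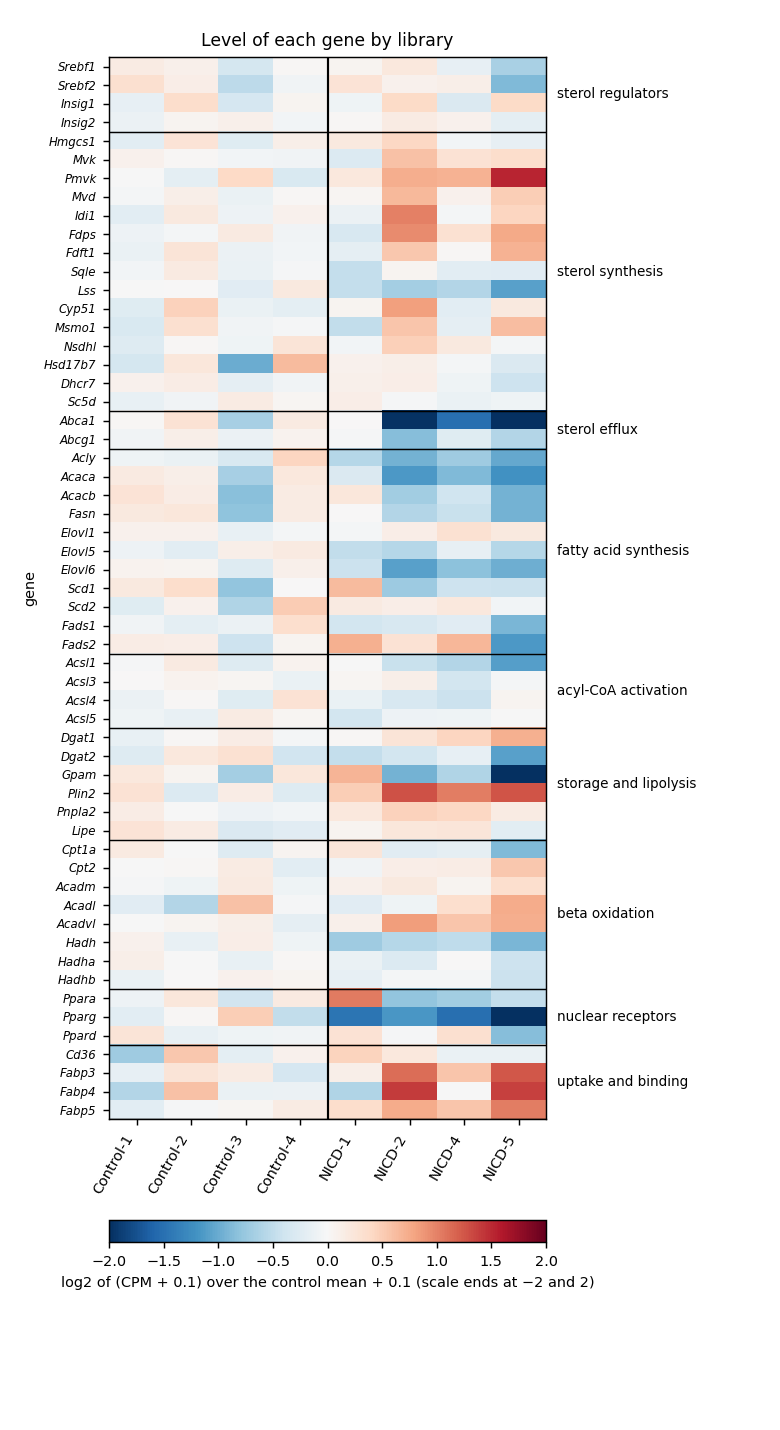
Level of each of the 57 genes in each library, as log2 of CPM + 0.1 over the control mean + 0.1, with red for higher and blue for lower and pathways divided by lines. For Acaca, Fasn and Abca1, control 3 lies below the other controls (27.0, 52.2 and 110 CPM) and β-tetO-NICD library 1 above the rest of its group (34.9, 92.4 and 176 CPM), and Pparg and Plin2 keep one colour across all 4 β-tetO-NICD libraries.

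The acyl-CoA synthetases, which activate fatty acids for every later use, gave no gene past the test (0 of 4 by edgeR, DESeq2 or an unadjusted p under 0.05). All 4 values were below 0. Acsl1 was lowest at −0.49 (adjusted p = 0.164), with 25.5, 29.4, 21.72 and 27.4 CPM in controls and 25.9, 19.0, 17.2 and 12.04 CPM in β-tetO-NICD libraries. Its value was −0.69 without β-tetO-NICD library 1 (adjusted p = 0.0249) and −0.21 with the length correction (adjusted p = 0.331). Acsl4, Acsl5 and Acsl3 had −0.20, −0.13 and −0.05, and with the length correction the median of the 4 was 0.04 in place of −0.17. Of Acsl3, the nearest to 0, controls held 10.8, 11.4, 11.2 and 9.86 CPM and β-tetO-NICD libraries 11.1, 11.8, 8.37 and 10.5 CPM.

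In lipid storage, Plin2 rose. Plin2, perilipin 2, coats lipid droplets and is the droplet protein most widely found outside adipose tissue. It lies on chromosome 4 (86648386 to 86670060, minus strand). It counted 28.0, 18.9, 25.5 and 19.2 CPM in controls 1 to 4 and 32.3, 55.5, 46.5 and 55.0 CPM in libraries 1, 2, 4 and 5 of the β-tetO-NICD group. Every β-tetO-NICD library was above every control, library 1 by the least, with means of 22.9 ± 4.55 and 47.3 ± 10.8 CPM (SD, n = 4 each) and a log2 fold change of 1.05 (SE 0.21, adjusted p = 0.0199). It was 0.77 (adjusted p = 0.0126) after the length correction, and it passed in 4 of 8 comparisons with 1 library left out. Over 14 other settings its log2 fold change stayed between 0.74 and 1.13, and the adjusted p ran from 0.000359 to 0.309. Adipocyte marker sums, given above and mostly Cidea, were low but also separate between the groups. Each of the other adipocyte markers had at most 6 counts in any library. The part of adipocytes in the value of Plin2 was not tested.

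The enzymes that make and break triglyceride did not pass. Pnpla2, the lipase that starts the breakdown of stored triglyceride, counted 37.5, 33.7, 31.7 and 32.5 CPM in controls and 39.2, 46.6, 45.2 and 38.1 CPM in β-tetO-NICD libraries. Its groups did not overlap, with a gap between control 1 and β-tetO-NICD library 5 smaller than the spread of either group (log2 fold change 0.32, SE 0.13, adjusted p = 0.136). Dgat1 and Dgat2, the unrelated enzymes of the last step of triglyceride synthesis, had values of 0.38 and −0.49, the latter with 4.80, 6.71, 7.16 and 4.38 CPM in controls and 4.13, 4.45, 5.15 and 2.67 CPM in β-tetO-NICD libraries. Lipe, hormone-sensitive lipase, had 0.09. Gpam, which adds the first acyl chain to glycerol phosphate, ranged from 2.17 to 30.7 CPM within the β-tetO-NICD group alone and had the widest interval of the storage genes, −1.78 to 0.83. Its log2 fold change of −0.47 turned to 0.04 in the libraries without Eif2s3y counts and was −1.21 without β-tetO-NICD library 1 (adjusted p = 0.0796).

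Of the 8 genes of β oxidation, Hadh fell and 7 did not pass by edgeR, while DESeq2 called Hadh and Acadvl (background, 6.76% by edgeR and 18.2% by DESeq2). Hadh encodes the mitochondrial short-chain 3-hydroxyacyl-CoA dehydrogenase, whose loss in people causes excess insulin secretion. It lies on chromosome 3 (131233419 to 131272101, minus strand) and was next to Acly in level per kilobase. It counted 542, 462, 561 and 484 CPM in controls and 312, 345, 362 and 273 CPM in β-tetO-NICD libraries. The groups were separated by a gap about as wide as the range of the controls, and Hadh fell by 0.67 on the log2 scale (SE 0.16, adjusted p = 0.0366). The value was −0.59 after the length correction (adjusted p = 0.0208) and −0.71 in the 5 libraries without Eif2s3y counts (adjusted p = 0.211). Hadh passed in 9 of 14 other settings, with adjusted p from 0.000241 to 0.211. It passed in 1 of 8 comparisons that left out a library, that without β-tetO-NICD library 1, with adjusted p from 0.0199 to 0.111. The β cell marker sums given above reached lower in the β-tetO-NICD group, with overlapping ranges, and their part in this value was not tested.

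Acadvl, the acyl-CoA dehydrogenase of very long chains, had the highest value of the pathway (0.58, SE 0.18, adjusted p = 0.0727). It counted 83.1, 86.2, 90.1 and 73.1 CPM in controls and 88.9, 149, 122 and 137 CPM in β-tetO-NICD libraries, with library 1 the only one inside the range of the controls. Without library 1 the value was 0.71 (adjusted p = 0.00764), and with the length correction 0.37 (adjusted p = 0.0696). The dehydrogenases of long and medium chains, Acadl and Acadm, had 0.24 and 0.18. Cpt1a, the gate for entry into mitochondria that malonyl-CoA holds back, had −0.21, and Cpt2, which completes that entry, had 0.20. Hadha and Hadhb, the subunits of the trifunctional protein, which are neighbours on opposite strands of chromosome 5, had −0.20 and −0.16. The 95% intervals of these 7 genes reached from −0.71 to 0.97.

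Pparg had the lowest log2 fold change of all 57 genes. It encodes PPARγ, the lipid-sensing nuclear receptor best known for driving adipocyte differentiation, and lies on chromosome 6 (115360951 to 115490399, plus strand). It counted 7.24, 8.57, 11.9 and 5.93 CPM in controls and 2.99, 3.71, 2.89 and 1.91 CPM in β-tetO-NICD libraries. Every control was above every β-tetO-NICD library, with means of 8.41 ± 2.57 and 2.88 ± 0.739 CPM (SD, n = 4 each), and it fell by 1.54 on the log2 scale (SE 0.28, adjusted p = 0.0134). Pparg was the one gene of the 57 that passed in all 8 comparisons with 1 library left out, at −1.33 to −1.69. Its value was −1.72 (adjusted p = 0.00414) after the length correction. In the 5 libraries without Eif2s3y counts it was −1.59 with an adjusted p of 0.084, and it passed in the other 13 settings tried.

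The other PPAR genes had nearly the same mean in both groups. Ppard, the most abundant of the family here per kilobase of transcript, counted 31.9, 24.0, 25.0 and 25.2 CPM in controls and 32.4, 26.0, 33.2 and 14.7 CPM in β-tetO-NICD libraries, a log2 fold change of 0.00 (95% interval −0.54 to 0.55). Ppara, the receptor that drives fatty acid oxidation genes in liver, was the lowest of the 57 genes per kilobase and counted 0.553, 0.718, 0.435 and 0.690 CPM in controls and 1.33, 0.306, 0.332 and 0.403 CPM in β-tetO-NICD libraries. One library, β-tetO-NICD library 1, set its mean, and its 95% interval was wide, at −1.18 to 1.11. Its log2 fold change was −0.03 in all 8 libraries and −0.79 without library 1 (adjusted p = 0.143).

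The 4 genes of uptake and binding all had values above 0, with a median of 0.73 (0.40 to 0.90 over the alternatives tried), and none passed by edgeR (2 at an unadjusted p under 0.05, against 31.6% of all tested genes, and 2 by DESeq2, Fabp3 and Fabp5, against 18.2%). Fabp5, a cytosolic fatty acid binding protein on chromosome 3 (10012548 to 10016607, plus strand), counted 7.43, 8.53, 8.86 and 9.74 CPM in controls and 11.02, 14.5, 12.8 and 17.6 CPM in β-tetO-NICD libraries. Its groups did not overlap, with a log2 fold change of 0.69 (SE 0.18) and an adjusted p of 0.054, and with the length correction it was 0.71 (adjusted p = 0.0376). Fabp5 has processed copies elsewhere in the genome, between which pseudoalignment may divide reads.

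Fabp3, the heart form, counted 5.35, 7.22, 6.81 and 4.75 CPM in controls and 6.56, 13.3, 8.93 and 14.4 CPM in β-tetO-NICD libraries (log2 fold change 0.84, SE 0.27, adjusted p = 0.0855). Its transcript of 823 bases is the shortest of the 57, and after the length correction the value was 0.20 (adjusted p = 0.456), and without β-tetO-NICD library 1 it was 1.01 (adjusted p = 0.0128). Fabp4, the form of adipocytes, macrophages and capillary endothelium, was split within the β-tetO-NICD group, at 15.7, 63.3, 23.8 and 61.5 CPM against 16.0, 35.9, 21.72 and 22.1 CPM in controls (log2 fold change 0.78, adjusted p = 0.239, and 1.05 with an adjusted p of 0.0489 without library 1). Macrophage marker sums, of which C1qa was the largest part, had separate ranges between the groups, as given above. Endothelial marker sums did not, and the part of either cell type in Fabp4 was not tested. Cd36, the membrane fatty acid receptor, counted 6.23, 14.9, 8.86 and 10.8 CPM in controls and 13.97, 11.9, 9.30 and 9.27 CPM in β-tetO-NICD libraries, a log2 fold change of 0.12 (95% interval −0.48 to 0.72).

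**Figure D3:**
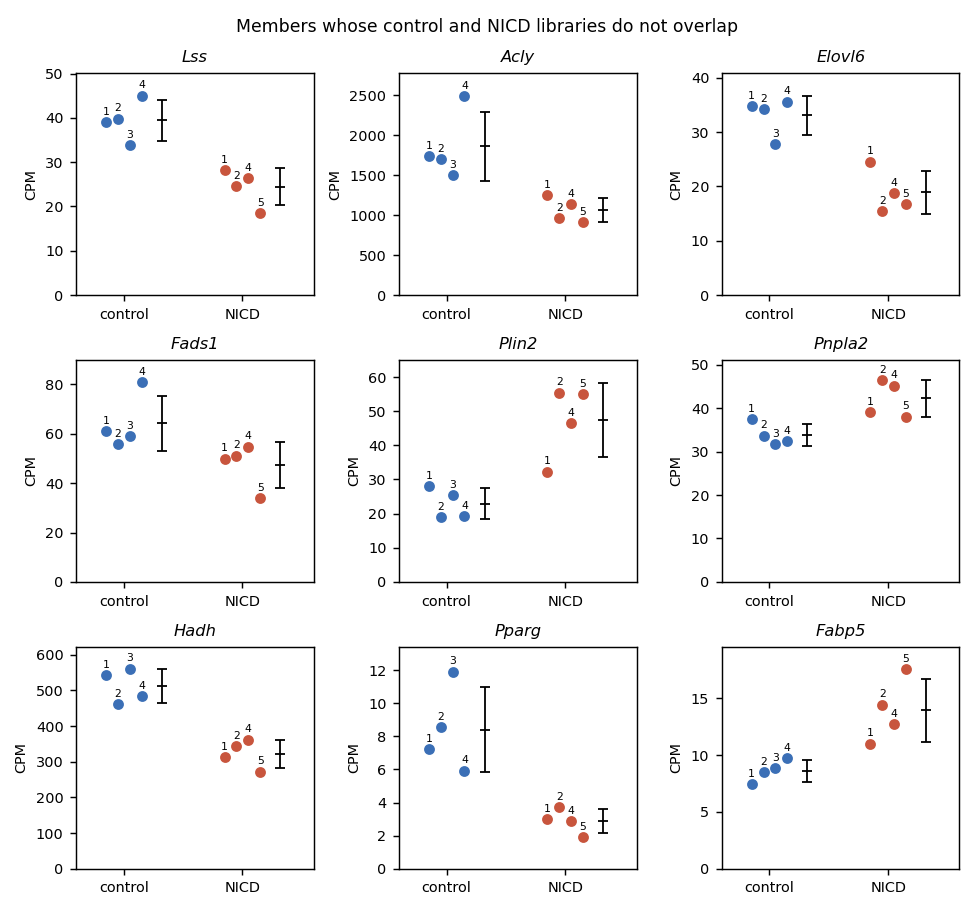
TMM-scaled CPM in each library for the 9 genes whose control (blue) and NICD (red) libraries do not overlap, with each library's number and the mean ± SD beside the points. Lss, Acly, Elovl6, Fads1, Hadh and Pparg are lower and Plin2, Pnpla2 and Fabp5 are higher in the NICD libraries.

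Across the 57 genes, the log2 fold change went with transcript length. The Spearman correlation was −0.655 (57 genes that share libraries, depth and the length trend of each library, given as a description), and over 14659 tested genes with a length it was −0.486. Genes below 0 had a median longest transcript of 4467 bases, genes above 0 of 2697 bases, and all tested genes of 3359 bases. With an offset that removes each library's length trend, the correlation was −0.181 over the 57 genes and 7 genes passed (Acly, Elovl5, Elovl6, Fabp5, Hadh, Plin2 and Pparg, 12.3%, against 10.3% of all tested genes). The loss of the trend follows from how the offset is made (0.00362 over all tested genes with a length). It does not show which differences between the groups come from length. Of the 5 genes called before, 4 were among them, and Lss was not.

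**Figure D4:**
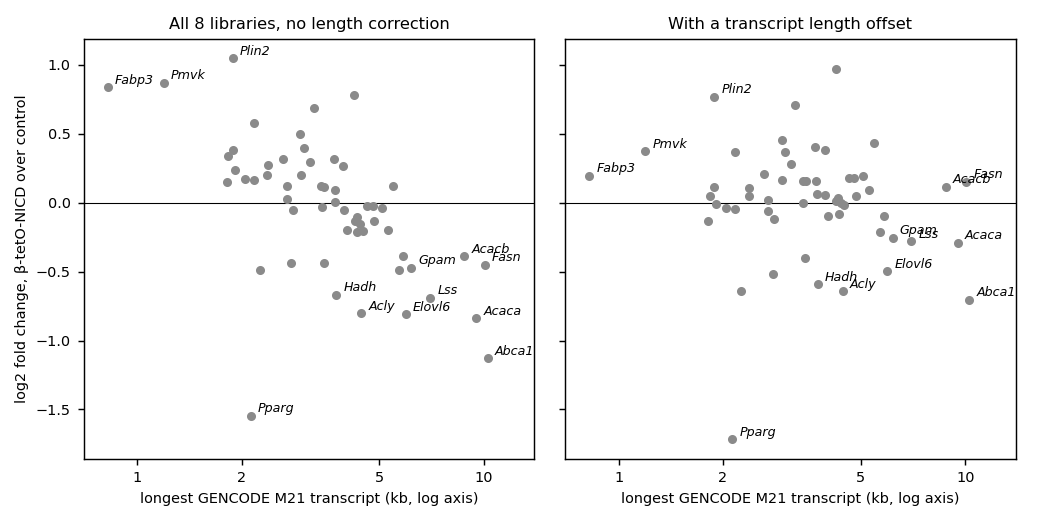
Log2 fold change of the 57 genes against the length of the longest annotated transcript (log axis), from the fit without a length correction (left) and with a length offset for each library (right). On the left, values slope from Fabp3 and Pmvk down to Abca1 and Acaca (Spearman −0.655). On the right, the offset, which is built to remove that slope, leaves −0.181, and Pparg remains lowest.

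The counts of called genes depended strongly on single libraries. Without β-tetO-NICD library 1, 16 of the 57 genes passed (28.1%), but so did 33.1% of all tested genes. The 11 added were Abca1, Abcg1, Acaca, Acadvl, Acly, Acsl1, Fabp3, Fabp4, Fabp5, Fdps and Pmvk. Of these, only Acaca passed in another comparison with 1 library left out, that without control 3. Without any 1 of the other 7 libraries, 1 to 5 passed (1.75% to 8.77%, where 2.45% to 5.86% of all tested genes did), and with control 2, control 4, β-tetO-NICD library 2 or β-tetO-NICD library 4 left out Pparg alone did (1.75%, against 3.37%, 2.92%, 2.45% and 2.84%). In the fit of controls 1 and 3 against β-tetO-NICD libraries 1, 2 and 4, those without Eif2s3y counts, none of the 57 passed by edgeR, with 9 at an unadjusted p under 0.05 (15.8%, against 12.8% of all tested genes) and 116 genes called in all (0.756%). Library 5 was the lowest of its group for 28 of the 57 genes and control 3 of its group for 28. Libraries of the β-tetO-NICD group varied more: the coefficient of variation had a median of 21.4% there and 15% in controls, and was larger in the β-tetO-NICD group for 46 of 57 genes. Gpam, Ppara, Abca1 and Fabp4 had the widest spread, at 87.1%, 83.3%, 81.0% and 60.6%.

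Further genes of the same pathways were counted from lists that hold 68 genes besides the 57, of which 61 were tested. Of these, 3 passed (4.92%, against 6.76% of all tested genes). Mlxipl, which encodes the glucose-responsive factor ChREBP, a driver of fatty acid synthesis genes, counted 178, 147, 94.0 and 133 CPM in controls and 93.7, 39.1, 58.4 and 65.0 CPM in β-tetO-NICD libraries. It fell by 1.11 on the log2 scale (SE 0.28, adjusted p = 0.0445). The gap between control 3 and β-tetO-NICD library 1 was narrow. Mlxipl passed in 2 of 8 comparisons that left out a library, those without control 3 and without β-tetO-NICD library 1 (−1.35, adjusted p = 0.00682), and in 11 of 14 other settings, with adjusted p from 0.00248 to 0.341 over all of them. Ehhadh, a peroxisomal enzyme of β oxidation, fell from 61.2 ± 11.3 to 32.6 ± 6.77 CPM (SD, n = 4 each), by 0.91 on the log2 scale (adjusted p = 0.0267). It passed in 3 of 8 comparisons with a library left out and in 10 of 14 other settings (adjusted p from 0.000816 to 0.302). Etfa, which passes electrons from the acyl-CoA dehydrogenases to the respiratory chain, rose from 52.5 ± 9.20 to 84.4 ± 12.4 CPM (SD, n = 4 each; log2 fold change 0.69, adjusted p = 0.0421), and after the length correction it was 0.30 (adjusted p = 0.0983). Etfa passed in 2 of 8 and 7 of 14 (adjusted p from 0.00426 to 0.443).

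By list, the other genes gave 1 lower of 12 tested in fatty acid synthesis and 1 higher and 1 lower of 13 in β oxidation. In the β oxidation list 10 of 13 values were above 0, with a median of 0.39 (7548 of 15082 values and a median of 0.00 over all tested genes). In it 9 had an unadjusted p under 0.05 (69.2%, against 31.6%), and DESeq2 called 7, where it called 18.2% of all genes. None passed among 14 other sterol genes, 10 of storage and lipolysis, 7 of uptake and activation and 5 partners of the PPAR receptors, with 2, 2, 2 and 3 at an unadjusted p under 0.05 and 0 by DESeq2. Medians in these 4 lists were −0.18, −0.03, 0.37 and 0.42. Among the sterol genes, Scap, Mbtps1 and Mbtps2, which carry and cleave the SREBP precursors, had −0.23, −0.27 and −0.53, and Nr1h2 and Nr1h3, the LXR receptors that drive Abca1 and Abcg1, had 0.09 and −0.25. Rxra and Rxrb, partners of the PPARs, had 0.42 and 0.38 (adjusted p = 0.147 and 0.109), and Rxrb did not overlap between the groups. Ppargc1b, a coactivator of nuclear receptors, had −1.02 (adjusted p = 0.156), with overlapping groups and at most 44 counts in a library, and was the only one of the 5 partners with a value below 0.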

How the data were processed

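Islet RNA of 4 control and 4 β-tetO-NICD mice was sequenced by the authors from stranded mRNA libraries and pseudoaligned to the GRCm38 mouse transcriptome with Kallisto. The deposited table holds whole-number counts per gene symbol, not normalized. Versions, the annotation release and how estimates were made whole are not given in the sources used here. Controls 1 to 4 and NICD libraries 1 and 2 matched single labels by column name, and the columns numbered 4 and 5 matched only their group, whose labels run from 1 to 4. A further deposited table of the authors' own comparison (limma log2 fold changes, mean expression, test statistics and p values) was not used.

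The count analysis used edgeR 4.0.16 under R 4.3.3. A gene was tested if 4 or more of the 8 libraries held 10 or more counts. Library sizes were scaled by TMM, and the groups were compared by the quasi-likelihood test without covariates, with Benjamini-Hochberg adjustment over all 15082 tested genes and a threshold of 0.05. All adjusted p values in the text are from edgeR unless DESeq2 1.42.0 or limma-voom (limma 3.58.1) is named, and SE is the log2 fold change over the root of its F statistic. Full values are given for genes that passed, genes whose groups did not overlap and the highest and lowest gene of each pathway, and other pathway genes are named if they passed. Those named beyond this rule (among them Acsl4, Elovl5, Fasn, Fdps, Gpam, Fabp4, Cidea and the sterol and PPAR partners) were chosen after their values were seen. The genes, lists and rule were chosen with earlier results of these data known. Coordinates and transcript lengths are from GENCODE M21 (97.2% of tested genes had a length). The length correction is an offset per gene and library from a lowess trend (span 0.3). Fits were tested on simulated data. Libraries within a group differed by far more than sampling noise (lowest chi-square per gene 31.5).

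Alternatives were other scalings, tools and filters, an acinar score, the Y-linked gene or the replicate number as covariates, the length offset, only the libraries without Eif2s3y counts, and leaving out each library. A covariate for the sign of the length trend was added after seeing the data.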

Additional observations from a re-analysis of the deposited data

Results flagged for a closer look

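Within groups of 4 libraries, 9 of 114 gene and group pairs had 1 library far from the other 3 (gap over range above Dixon's critical value of 0.829). Chance gives about 1 in 20. Control 3 was the low library for 4 of them, all in fatty acid synthesis: Fasn at 52.2 CPM against 102 to 107 CPM (gap 0.910), Acaca at 27.0 against 46.5 to 49.3 CPM (gap 0.877), Acacb at 4.31 against 8.57 to 9.41 CPM (gap 0.836) and Elovl6 at 27.7 against 34.3 to 35.6 CPM (gap 0.834). Control 3 was also the control with a negative length trend. β-tetO-NICD library 1 was the high library for Ppara, at 1.33 against 0.306 to 0.403 CPM (gap 0.905), and for Scd1, at 14.9 against 5.72 to 7.17 CPM (gap 0.841). Cyp51 was highest in control 2, at 56.4 against 34.7 to 37.4 CPM (gap 0.879). Ppard was highest in control 1, at 31.9 against 24.0 to 25.2 CPM (gap 0.845). Elovl5 was highest in β-tetO-NICD library 4, at 121 against 91.3 to 96.2 CPM (gap 0.836).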

How the results depend on the processing

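Over 572 values of 26 named genes under 22 alternatives, 464 kept direction and side of the threshold, 70 no longer passed, 21 newly passed and 17 reversed. The 5 called genes became 3 with total counts alone, 12 with DESeq2, 0 in the libraries without Eif2s3y counts, 3 with the replicate block and 3 with the length-trend sign, and 1 to 16 with 1 library left out. Pparg passed throughout except without the Eif2s3y libraries. All called genes went from 1020 to 2739 with DESeq2, 116 in the libraries without Eif2s3y counts, 1554 with the length offset and 608 with the length-trend sign, and to 373 to 5065 with 1 library left out. The median over the 57 genes was 0.10 in the libraries without Eif2s3y counts. The 3 called other pathway genes became 1 with total counts, 9 with DESeq2, 6 with the length offset and 0 by edgeR with the Y-linked covariate, the libraries without Eif2s3y counts or the length-trend sign (18, 5 and 11 at an unadjusted p under 0.05), and 0 to 15 with 1 library left out. Upper-quartile scaling turned the split of all calls from 632 higher and 388 lower to 819 and 339.

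The 17 reversals were of 4 named genes near 0. Over all 57 genes, 25 changed sign under at least 1 alternative, among them Fasn, Acacb and Gpam, and none of the 25 passed in any setting. Srebf1 was 0.10 in the libraries without Eif2s3y counts, 0.038 with the length offset, 0.071 with the length-trend sign and −0.22 to 0.041 with 1 library left out. Acsl3 was 0.025 with upper-quartile scaling, 0.055 with the length offset and −0.11 to 0.047 with 1 library left out. Ppard was −0.048 with limma-voom, −0.0065 with the acinar score, −0.19 with the Y-linked covariate and −0.12 to 0.20 with 1 library left out. Cd36 was −0.045 to 0.36 with 1 library left out. The causes were not tested.

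The replicate numbers shared by labels settle only 2 pairs, whose deviations correlated at 0.276 and −0.0901. The labels do not say that equal numbers mean a pair, and 2 correlations cannot decide it. With the replicate block, 3 genes passed (Elovl6, Plin2 and Pparg) and 970 of all genes. Depth limits Ppara, whose lowest library stood at 0.306 CPM where 3 counts are 0.131 CPM.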
